A study of Mus musculus with 12 samples.

Results

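The genes described here are 9 genes of the transforming growth factor beta (TGF-beta) pathway, with GARP among them. They are the ligands Tgfb1, Tgfb2 and Tgfb3, the receptors Tgfbr1 and Tgfbr2, the latent ligand binders Lrrc32 (GARP) and Ltbp1, the signal transducer Smad3 and the inhibitor Smad7. They were found by gene symbol, and all 9 had a row among the 15361 genes of the kidney table and among the 18145 genes of the F4/80+ table. The set was drawn up because Lrrc32 had higher counts in Trp/Trp than in Arg/Arg F4/80+ libraries, so the 9 genes were chosen by that measured difference and the genotype values of the F4/80+ libraries are given below as a description, without a test.

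Polyadenylated RNA was sequenced from mice made with CRISPR-Cas9 and homozygous for the Trp or the Arg allele of a coding polymorphism in Sh2b3, whose product LNK is an adaptor that dampens cytokine signalling in blood cells. The 4 groups of 3 biological replicates were F4/80+ cells of Trp/Trp mice, F4/80+ cells of Arg/Arg mice, whole kidneys of Trp/Trp mice and whole kidneys of Arg/Arg mice. All 12 libraries came from mice given angiotensin II, a hormone that raises blood pressure, for 4 weeks, and no untreated mouse was among them. Adgre1 encodes F4/80, which mouse macrophages carry on their surface, and magnetic beads against it were applied to cells of other kidneys after a density gradient. The age and sex of the mice were not in the labels, which also did not say whether each replicate was a separate animal, so a p-value measures the spread between these libraries.

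TGF-beta is secreted in a latent form, in which the growth factor stays wrapped in its own propeptide. LTBP1 ties that complex to the extracellular matrix, and GARP holds it on the surface of regulatory T cells, platelets and some endothelial and stromal cells, where integrins can release it. Free ligand joins TGFBR2 and TGFBR1, the TGFBR1 kinase phosphorylates SMAD2 and SMAD3, and SMAD7, itself induced by the pathway, blocks the receptor. In the kidney the pathway is best known for driving matrix deposition and fibrosis, and for restraining inflammation.

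Total counts ran from 35.9 to 51.6 M in F4/80+ libraries and from 19.6 to 54.7 M in kidney libraries, where M stands for mega. Mitochondrial genes took 70.1% to 83.6% of the counts in F4/80+ libraries and 7.9% to 9.4% in kidney libraries. Levels are therefore given as CPM, a gene's counts divided by the library's nuclear protein-coding counts in M, of which there were 6.9 to 11.1 M per F4/80+ library and 17785672 to 49994052 per kidney library. Adgre1 lay at 2.15, 11.5 and 16.7 CPM in the Trp/Trp F4/80+ libraries and at 10.8, 1.26 and 2.06 CPM in the Arg/Arg F4/80+ libraries, against 4.12 to 8.32 CPM in the 6 kidney libraries. The marker that defines the sort was thus below every kidney library in 3 of the 6 F4/80+ libraries. Summed CPM of 13 measured resident macrophage markers spanned 159 to 474 in F4/80+ libraries and, over 14 markers, 420 to 799 in kidney libraries. Summed CPM of 10 proximal tubule markers, such as Kap, spanned 13240 to 43350 in F4/80+ libraries. The libraries are called F4/80+ below by their label, while by these markers most of the marker RNA in them was of tubule genes.

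The clearest result was between sample types, and it separated the ligands. Tgfb1, the main TGF-beta ligand of immune cells, was lower in F4/80+ libraries than in kidney libraries, and Tgfb2, an isoform first known for its roles in development, was higher. Their promoters are shown because these 2 ligands moved in opposite directions. Each is 300 bases on the gene's own strand, from 250 before to 50 after the annotated start, from RefSeq on GRCm38.p6. That of Tgfb1 lies at chr7:25686752-25687051 on the plus strand and that of Tgfb2 at chr1:186705940-186706239 on the minus strand. Capitals mark CAGAC on either strand. It holds AGAC, one arm of the palindrome GTCTAGAC that SMAD3 and SMAD4 bind, and is not itself part of that palindrome.
Tgfb1 promoter: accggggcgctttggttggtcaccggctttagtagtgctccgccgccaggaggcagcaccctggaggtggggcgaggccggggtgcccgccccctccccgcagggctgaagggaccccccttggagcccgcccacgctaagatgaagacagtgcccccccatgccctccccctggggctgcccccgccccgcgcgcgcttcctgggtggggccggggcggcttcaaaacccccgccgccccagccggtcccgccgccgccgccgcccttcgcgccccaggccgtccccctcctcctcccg
Tgfb2 promoter: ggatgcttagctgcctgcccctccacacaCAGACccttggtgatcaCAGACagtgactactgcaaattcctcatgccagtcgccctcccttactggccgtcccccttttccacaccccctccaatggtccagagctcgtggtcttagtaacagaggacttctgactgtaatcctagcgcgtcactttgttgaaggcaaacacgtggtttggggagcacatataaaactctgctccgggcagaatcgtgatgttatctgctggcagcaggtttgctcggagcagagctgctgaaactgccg
CAGAC occurred 0 times in the Tgfb1 window and 2 times in the Tgfb2 window, whose GC contents were 77.0% and 54.3%. CAGAC on either strand was in 49.6% of 32851 promoters of this length, so holding it is common. Neither GTCTAGAC nor the AP-1 motif TGACTCA was in either window, and these were in 0.213% and 5.20% of all promoters, with overlaps between motifs counted for each. A promoter was in the table used here for 6 of the 9 genes, not for Lrrc32, Tgfb3 or Smad7. A match describes the letters only.

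Tgfb1 (chromosome 7, 25687002 to 25705077, mm10) had 2.06, 2.11 and 1.58 CPM in Trp/Trp F4/80+ libraries and 0.727, 1.77 and 0.978 CPM in Arg/Arg F4/80+ libraries. It had 22.7, 18.2 and 21.8 CPM in Trp/Trp kidneys and 16.1, 18.9 and 17.0 CPM in Arg/Arg kidneys. Every F4/80+ library thus lay far below every kidney library. These low levels rested on 5 to 23 reads per F4/80+ library. Over all 12 libraries, with genotype in the model, the log2 fold change of F4/80+ over kidney libraries was -3.50 ± 0.19 (SE), which is 0.0886-fold (edgeR quasi-likelihood test, adjusted p = 3.11e-09). Tgfb2 (chromosome 1, 186622792 to 186705989) had 3.68, 8.81 and 6.96 CPM in Trp/Trp F4/80+ libraries and 5.23, 2.78 and 3.72 CPM in Arg/Arg F4/80+ libraries. It had 5.55, 2.01 and 1.69 CPM in Trp/Trp kidneys and 2.17, 2.04 and 2.01 CPM in Arg/Arg kidneys. The sample types overlapped only through the first Trp/Trp kidney. The log2 fold change was 1.11 ± 0.29 (edgeR, adjusted p = 0.00417), and limma voom gave an adjusted p of 0.0508.

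Tgfb3, the third ligand, had 3.77, 2.94 and 2.89 CPM in Trp/Trp F4/80+ libraries and 2.47, 1.39 and 1.08 CPM in Arg/Arg F4/80+ libraries. It had 8.36, 4.18 and 1.91 CPM in Trp/Trp kidneys and 3.32, 3.38 and 3.21 CPM in Arg/Arg kidneys. The sample types overlapped, and the difference of -0.66 ± 0.31 on the log2 scale did not pass (edgeR, adjusted p = 0.0698). Without the third Trp/Trp kidney it was -0.86 and passed (edgeR, adjusted p = 0.00723), and without the first Trp/Trp kidney it was -0.39. Exons of Tgfb2 and Tgfb3 overlap unnamed genes on the opposite strand, and the sources used here do not say how strand was handled in counting, so reads of the partners cannot be told apart.

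Divided by exon length, to compare genes, the makeup of the ligand RNA differed between sample types. Tgfb1 was 19.0%, 14.9% and 13.2% of the summed ligand CPM per kb in Trp/Trp F4/80+ libraries and 8.11%, 28.3% and 16.8% in Arg/Arg F4/80+ libraries. In kidneys it was 56.7%, 69.5% and 83.5% in the Trp/Trp and 70.2%, 73.5% and 72.2% in the Arg/Arg libraries. Tgfb1 was thus the leading ligand transcript in every kidney library and in no F4/80+ library. Tgfb2 took 29.4% to 55.6% in F4/80+ libraries and 5.62% to 12.1% in kidney libraries. Tgfb3 took 27.6% to 51.6% in F4/80+ libraries, against 10.9% to 31.2% in kidney libraries. The genotype groups overlapped for Tgfb1 within each sample type.

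**Figure D1:**
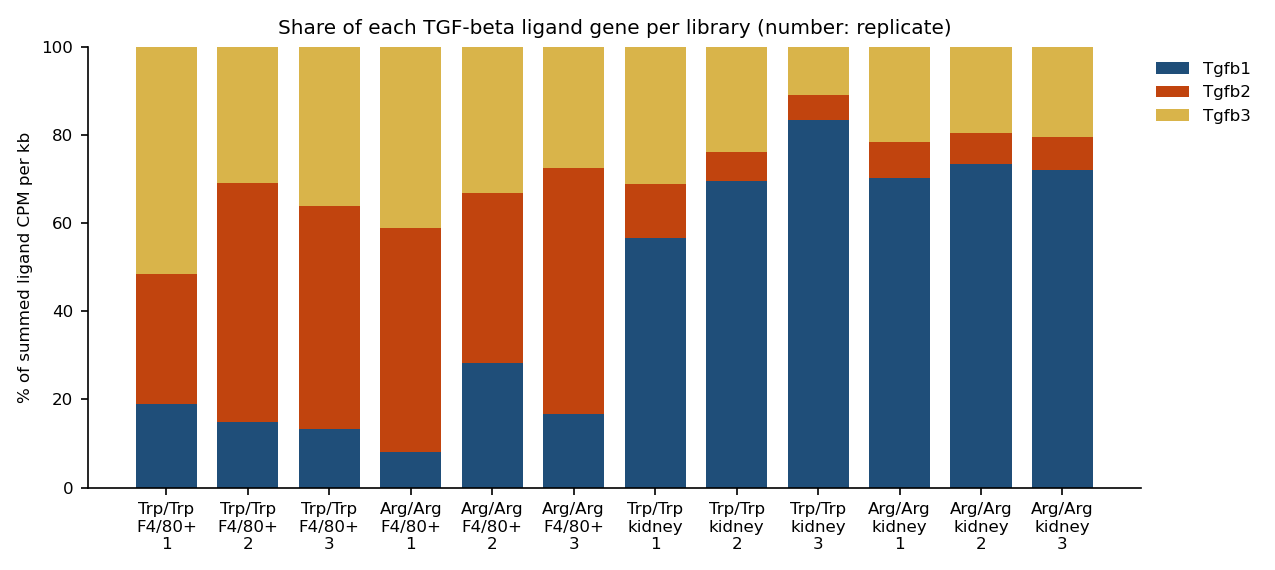
Share of each ligand in the summed CPM per kb of Tgfb1, Tgfb2 and Tgfb3 (percent, vertical axis) in each of the 12 libraries (horizontal axis), stacked so that each bar reaches 100%. The Tgfb1 segment is 8.11% to 28.3% in F4/80+ libraries and 56.7% to 83.5% in kidney libraries.

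The receptors moved apart as well. Tgfbr1, the signalling kinase of the receptor pair, rose in F4/80+ libraries relative to kidney libraries, and Tgfbr2, the ligand-binding kinase, fell slightly. Tgfbr1 had 77.0, 178 and 131 CPM in Trp/Trp F4/80+ libraries and 146, 67.2 and 92.5 CPM in Arg/Arg F4/80+ libraries, against 69.1 to 84.5 CPM in the 6 kidney libraries. The sample types overlapped, because 2 F4/80+ libraries, one of each genotype, lay within or below the kidney range. The log2 fold change was 0.66 ± 0.17 (edgeR, adjusted p = 0.00429). Tgfbr2 had 72.7, 74.8 and 70.8 CPM in Trp/Trp F4/80+ libraries and 69.3, 59.0 and 77.7 CPM in Arg/Arg F4/80+ libraries, against 84.4 to 98.4 CPM in kidney libraries. All 6 F4/80+ libraries lay below all 6 kidney libraries, and the log2 fold change of -0.21 ± 0.09 passed narrowly (edgeR, adjusted p = 0.0483). That call was lost when any of 10 of the 12 libraries was left out, with adjusted p up to 0.104, and also with DESeq2 size factors.

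Smad3, which carries the signal to the nucleus, and Ltbp1, which anchors the latent ligand, fell in F4/80+ libraries. Smad3 had 30.0, 31.6 and 32.0 CPM in Trp/Trp F4/80+ libraries and 26.5, 23.0 and 25.8 CPM in Arg/Arg F4/80+ libraries. It had 46.1, 47.8 and 45.4 CPM in Trp/Trp kidneys and 41.4, 43.4 and 44.5 CPM in Arg/Arg kidneys. All F4/80+ libraries lay below all kidney libraries, with a log2 fold change of -0.54 ± 0.08 (edgeR, adjusted p = 2.94e-05). Ltbp1 had 17.5, 20.1 and 19.4 CPM in Trp/Trp F4/80+ libraries and 14.97, 7.96 and 7.53 CPM in Arg/Arg F4/80+ libraries. It had 31.4, 21.03 and 23.1 CPM in Trp/Trp kidneys and 25.2, 24.9 and 24.0 CPM in Arg/Arg kidneys. The sample types did not overlap for Ltbp1 either, and the log2 fold change was -0.71 ± 0.17 (edgeR, adjusted p = 0.00228).

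Smad7 and Lrrc32 did not pass between sample types. Smad7 had 34.2, 37.8 and 30.6 CPM in Trp/Trp F4/80+ libraries and 27.0, 22.8 and 21.5 CPM in Arg/Arg F4/80+ libraries. It had 41.8, 34.8 and 35.6 CPM in Trp/Trp kidneys and 26.1, 40.5 and 43.0 CPM in Arg/Arg kidneys, a log2 difference of -0.24 ± 0.13 (edgeR, adjusted p = 0.117). Without the first Arg/Arg kidney that was -0.31 and passed (edgeR, adjusted p = 0.0372), and without the third Arg/Arg kidney it was -0.16. Lrrc32 differed by 0.12 ± 0.23 (edgeR, adjusted p = 0.662), with its spread in F4/80+ libraries, 7.83 to 43.1 CPM, on both sides of the kidney range of 11.9 to 26.3 CPM, and without the second Trp/Trp F4/80+ library the value was -0.09. Between sample types 2 of the 9 genes were called higher and 4 lower. Of all 13261 genes tested, 32.7% were called higher and 32% lower, and 64.6% were called in either direction, so the share of the 9 genes called lies near that of all genes. At an unadjusted p under 0.05 there were 7 of the 9 and 67.8% of all genes, and 3 of the 9 had a positive log2 fold change, as did 49.7% of all genes. F4/80+ and kidney libraries did not overlap, with F4/80+ lower, for 4 of the 9 and 27.8% of all genes, and with F4/80+ higher for 0 of the 9 and 15.2% of all genes. Sample type goes together with the cell preparation, the deposited table and any batch, which cannot be told apart. In bulk RNA, fewer cells of a type and less RNA per cell cannot be told apart either.

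**Figure D2:**
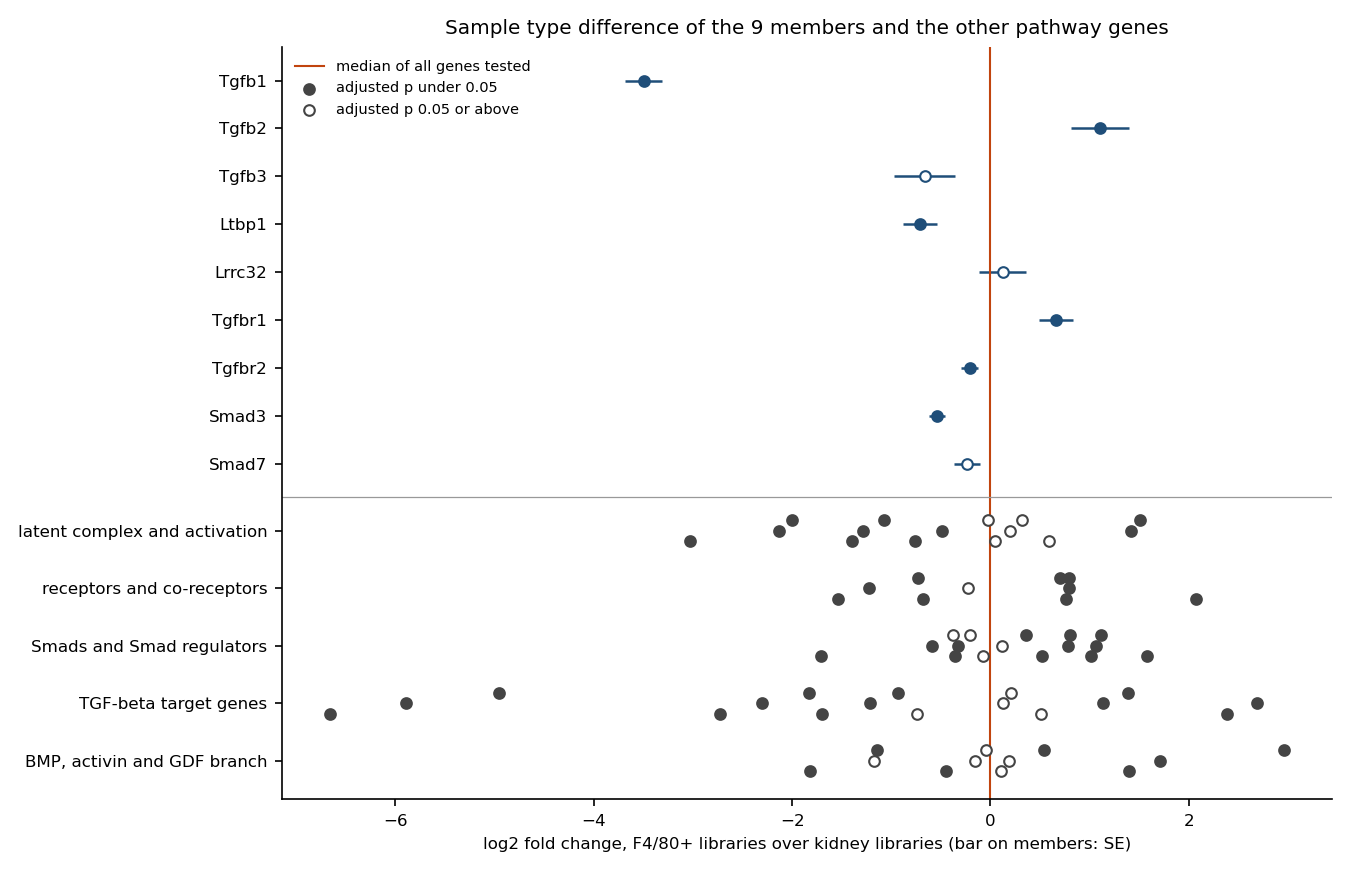
Log2 fold change of F4/80+ over kidney libraries (horizontal axis) for the 9 genes (upper rows, bars are SE) and for the other pathway genes by list (lower rows, a point per gene). Filled points passed an adjusted p of 0.05 and the vertical line is the median of all genes tested; Tgfb1 lies at -3.50 and Tgfb2 at 1.11.

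Per kb of exon, the receptors led in F4/80+ libraries, with 17.6 ± 6.63 CPM per kb for Tgfbr1 and 8.64 ± 0.788 for Tgfbr2 (SD, n = 6). In kidney libraries the same genes led, at 12.02 ± 0.828 and 11.0 ± 0.630 CPM per kb. The order then ran Smad7, Smad3 and Lrrc32 in both sample types, at 6.41 ± 1.42, 5.08 ± 0.651 and 4.36 ± 2.73 CPM per kb in F4/80+ libraries. In kidney libraries these 3 lay at 8.18 ± 1.39, 8.08 ± 0.404 and 3.96 ± 0.985 CPM per kb. Among these neighbours, Smad7 and Smad3 differed by less than the larger of their SDs in both sample types, and Smad3 and Lrrc32 did so in F4/80+ libraries. Within a library, the level of Smad7 per kb was 1.02 to 1.47 times that of Smad3 in F4/80+ libraries. In kidney libraries it was 0.77 to 1.18 times. Tgfb1 was sixth of the 9 in kidney libraries, at 3.79 ± 0.522 CPM per kb, and last in F4/80+ libraries, at 0.305 ± 0.113 CPM per kb. The level of Lrrc32 per kb was 5.76 to 24.7 times that of Tgfb1 in F4/80+ libraries and 0.79 to 1.25 times in kidney libraries.

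The genotype comparison asked whether the Trp allele, set against the Arg allele, went with other levels of these genes. In whole kidneys none of the 9 genes passed the test, nor did any of the 14464 genes tested (0%, edgeR), while DESeq2 called 15 genes. At an unadjusted p under 0.05, edgeR held 826 genes, or 5.71%, and among the 9 this was Tgfb1. Tgfb1 averaged 20.9 ± 2.40 CPM in Trp/Trp kidneys and 17.3 ± 1.43 CPM in Arg/Arg kidneys (SD, n = 3 each). Its log2 fold change was 0.24 ± 0.10 (edgeR, unadjusted p = 0.0438, adjusted p = 0.843), and the groups overlapped. Smad3 was the only one of the 9 whose kidney groups did not overlap, higher in Trp/Trp by 0.09 ± 0.06 (edgeR, adjusted p = 0.848), where 6.59% of all genes had groups that did not overlap in that direction and 3.67% in the other.

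Lrrc32 in kidneys had 26.3, 17.6 and 18.6 CPM in the Trp/Trp libraries and 11.9, 19.3 and 17.8 CPM in the Arg/Arg libraries. The groups overlapped, with the highest value in the first Trp/Trp kidney and the lowest in the first Arg/Arg kidney. The log2 fold change of 0.33 ± 0.19 did not pass (edgeR, unadjusted p = 0.123, adjusted p = 0.847), and it was 0.14 without the first Trp/Trp kidney. In that kidney 12 fibroblast, pericyte and smooth muscle markers summed to 912 CPM, against 457 and 463 CPM in the other Trp/Trp kidneys and 442 to 477 CPM in Arg/Arg kidneys. Resident macrophage markers summed to 799 CPM there, 520 and 603 CPM in the other Trp/Trp kidneys, and 420 to 487 CPM in Arg/Arg kidneys. Endothelial markers summed to 1042 CPM there and 785 CPM in the first Arg/Arg kidney, against 893 to 974 CPM in the other kidneys. Podocyte markers summed to 731 and 485 CPM in these libraries, against 558 to 582 CPM in the other kidneys. The part of these markers in the Lrrc32, Tgfb2 and Tgfb3 values of the first Trp/Trp kidney was not tested. Tgfb2 and Tgfb3 had log2 fold changes of 0.57 ± 0.39 and 0.55 ± 0.39 in kidneys, and without that library -0.14 and -0.03. The remaining 4, Ltbp1, Smad7, Tgfbr2 and Tgfbr1, lay between -0.12 and 0.06 on the log2 scale. Of the 9, 8 had a positive log2 fold change in kidneys, with a median of 0.09 against 0.00 for all genes, and without that library 4 had, with a median of -0.03.

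**Figure D3:**
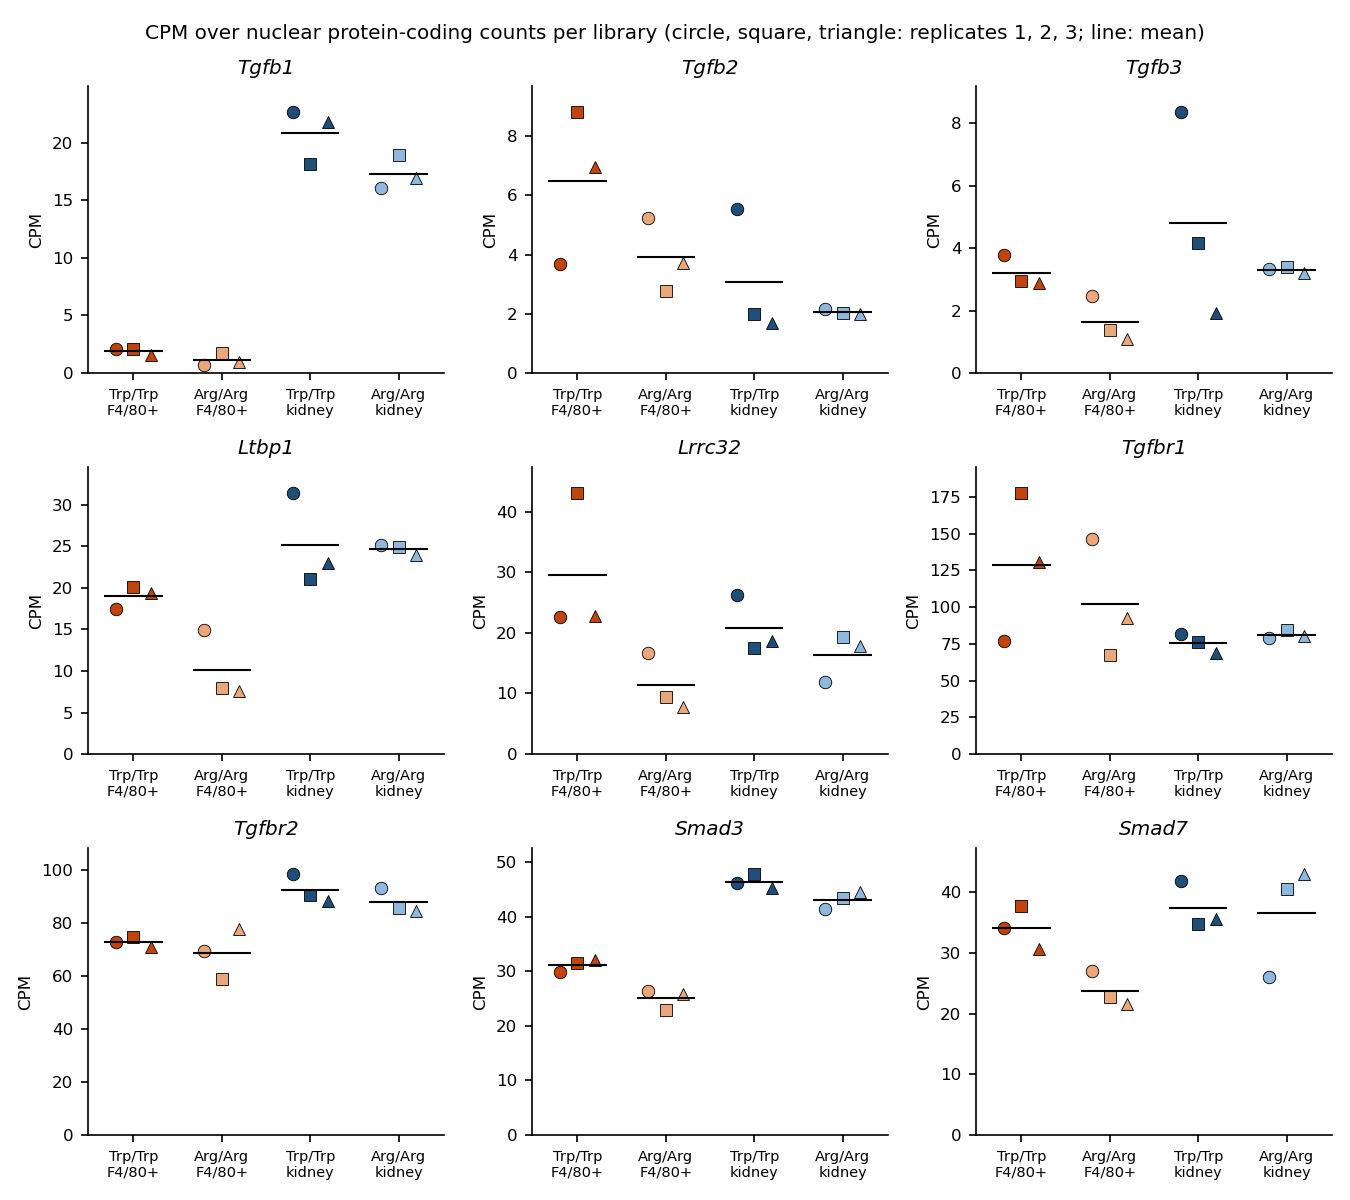
CPM of the 9 genes in each of the 12 libraries (points, vertical axis) by group (horizontal axis), where the line is the group mean. Lrrc32 spans 22.7 to 43.1 CPM in Trp/Trp F4/80+ libraries and 7.83 to 16.7 CPM in Arg/Arg F4/80+ libraries, and its kidney groups overlap.

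In F4/80+ libraries Lrrc32 (chromosome 7, 98489283 to 98502181, mm10) had 22.7, 43.1 and 22.8 CPM in the Trp/Trp and 16.7, 9.48 and 7.83 CPM in the Arg/Arg libraries. These are the values that chose the set. The groups did not overlap, and the second Trp/Trp library was far above the others. The means were 29.6 ± 11.7 CPM in Trp/Trp and 11.3 ± 4.73 CPM in Arg/Arg libraries (SD, n = 3 each), a log2 fold change of 1.27. Without the second Trp/Trp library it was 0.98, and without the first Arg/Arg library 1.51. Over the 4 groups Lrrc32 ranked Trp/Trp F4/80+, Trp/Trp kidney, Arg/Arg kidney, Arg/Arg F4/80+, and the ranges of neighbours in that order overlapped in each case. Whether the genotype difference itself differed between F4/80+ and kidney libraries was not tested.

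The other latent ligand binder followed the same split. Ltbp1 averaged 19.0 ± 1.35 CPM in Trp/Trp and 10.2 ± 4.18 CPM in Arg/Arg F4/80+ libraries, a log2 fold change of 0.81 with no overlap, while in kidneys the means were 25.2 ± 5.52 and 24.7 ± 0.627 CPM. In F4/80+ libraries Smad7, Smad3 and Tgfb3 also had every Trp/Trp library above every Arg/Arg library. Their log2 fold changes were 0.40, 0.18 and 0.89. Tgfb1 and Tgfb2 had log2 fold changes of 0.56 and 0.59 with overlapping groups, and Tgfbr1 and Tgfbr2 of 0.21 and -0.05. Groups did not overlap, with Trp/Trp higher, for 5 of the 9 genes and for 7.19% of the 15225 genes tested, and no gene of that table passed an adjusted p of 0.05 (0%, edgeR; 4 by DESeq2), with 1224 genes, or 8.04%, at an unadjusted p under 0.05. A positive log2 fold change was found for 8 of the 9, with a median of 0.56 against 0.01 for all genes. Nothing is read from these counts, since the contrast chose the set. In the authors' deposited table the log2 fold change of Lrrc32 was 1.24, with neither a p nor an adjusted p. That table held 20 genes at an adjusted p under 0.05 (DESeq2), of 5431 genes with an adjusted p.

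**Figure D4:**
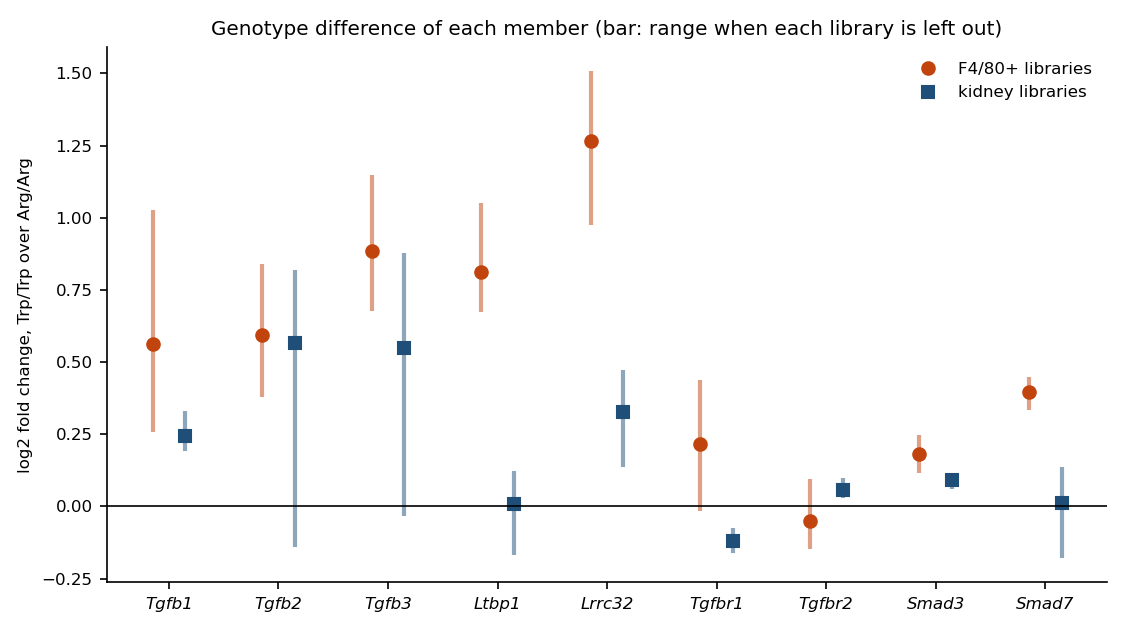
Log2 fold change of Trp/Trp over Arg/Arg (vertical axis) for the 9 genes (horizontal axis) in F4/80+ and in kidney libraries, where bars span the values found when each library is left out in turn. In F4/80+ libraries Lrrc32 lies at 1.27 and Ltbp1 at 0.81, and in kidney libraries at 0.33 and 0.01.

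Of the markers of other cells, none passed between genotypes in the F4/80+ libraries (edgeR), nor did any of the 15225 genes tested (0%). At an unadjusted p under 0.05 (edgeR) lay 8.04% of all genes. Among resident macrophage markers 10 of 12 did, among distal nephron markers 5 of 10 and among proximal tubule markers 4 of 10. Of endothelial markers 3 of 14 did, and of the other lists none. The summed levels of the markers are given beside Lrrc32. Summed CPM of 10 distal nephron and collecting duct markers, among them Umod and Slc12a3, was 13550, 21270 and 11950 in Trp/Trp and 14610, 6139 and 5696 in Arg/Arg F4/80+ libraries. Proximal tubule markers went the other way, with 25280, 13240 and 22130 in Trp/Trp and 20540, 43350 and 36420 in Arg/Arg libraries. All 10 distal markers had positive and all 10 proximal markers negative log2 fold changes, with medians of 0.70 and -0.88, while both sums overlapped between genotypes. Resident macrophage markers summed to 343, 439 and 474 CPM in Trp/Trp and 340, 183 and 159 CPM in Arg/Arg libraries, with no overlap but almost the same value at the edge. Fibroblast, pericyte and smooth muscle markers summed to 556, 1129 and 1062 CPM in Trp/Trp and 787, 463 and 312 CPM in Arg/Arg libraries, which overlap. Endothelial markers summed to 463, 364 and 253 CPM in Trp/Trp and 362, 281 and 266 CPM in Arg/Arg libraries, which overlap as well. Podocyte markers summed to 184 to 348 CPM in Trp/Trp and 172 to 296 CPM in Arg/Arg libraries, and of 8 T and NK cell markers only Cd8a had a row.

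The cells best known for GARP left few marker reads. Of 8 regulatory T cell markers, Foxp3, Il2ra, Ctla4, Tnfrsf4 and Ccr8 had no row in the F4/80+ table, whose rows each sum to at least 10 counts. The 3 with a row summed to 24.9 to 39.0 CPM in Trp/Trp and 15.5 to 37.5 CPM in Arg/Arg F4/80+ libraries, most of it Ikzf2. Of 10 platelet and megakaryocyte markers, 6 had no row, among them Gp9 and Gp6, and the other 4 summed to 4.11 to 8.88 CPM in Trp/Trp and 6.45 to 11.5 CPM in Arg/Arg libraries. The genotype groups overlap for both lists.

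As a description of the values that chose the set, Lrrc32 was also divided by the marker sums. Per 1000 CPM of distal nephron markers it had 1.68, 2.03 and 1.91 CPM in Trp/Trp and 1.14, 1.54 and 1.37 CPM in Arg/Arg F4/80+ libraries. The mean in Trp/Trp over that in Arg/Arg libraries was 1.38 on this scale, against 2.61 for CPM itself, and the groups did not overlap. Per 1000 CPM of resident macrophage markers it had 66.3, 98.2 and 48.2 CPM in Trp/Trp and 49.2, 51.7 and 49.2 CPM in Arg/Arg libraries, with a ratio of means of 1.42 and overlapping groups. Per 1000 CPM of fibroblast, pericyte and smooth muscle markers it had 40.8, 38.2 and 21.5 CPM in Trp/Trp and 21.3, 20.5 and 25.1 CPM in Arg/Arg libraries, with a ratio of means of 1.504 and overlapping groups. Against endothelial markers the ratio of means was 2.36, and against proximal tubule markers 4.16, without overlap of the groups in either case. It was 2.41 against podocyte, 1.97 against regulatory T cell and 3.94 against platelet and megakaryocyte markers, also without overlap. The regulatory T cell and platelet sums rest on 3 and 4 measured markers. Against Cd8a, the only T and NK cell marker with a row, it was 1.98 with overlapping groups. The genotype ratio of Lrrc32 thus depended on the marker sum it was set against. The part of the distal nephron, macrophage and mural markers in the Lrrc32 difference was not tested.

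**Figure D5:**
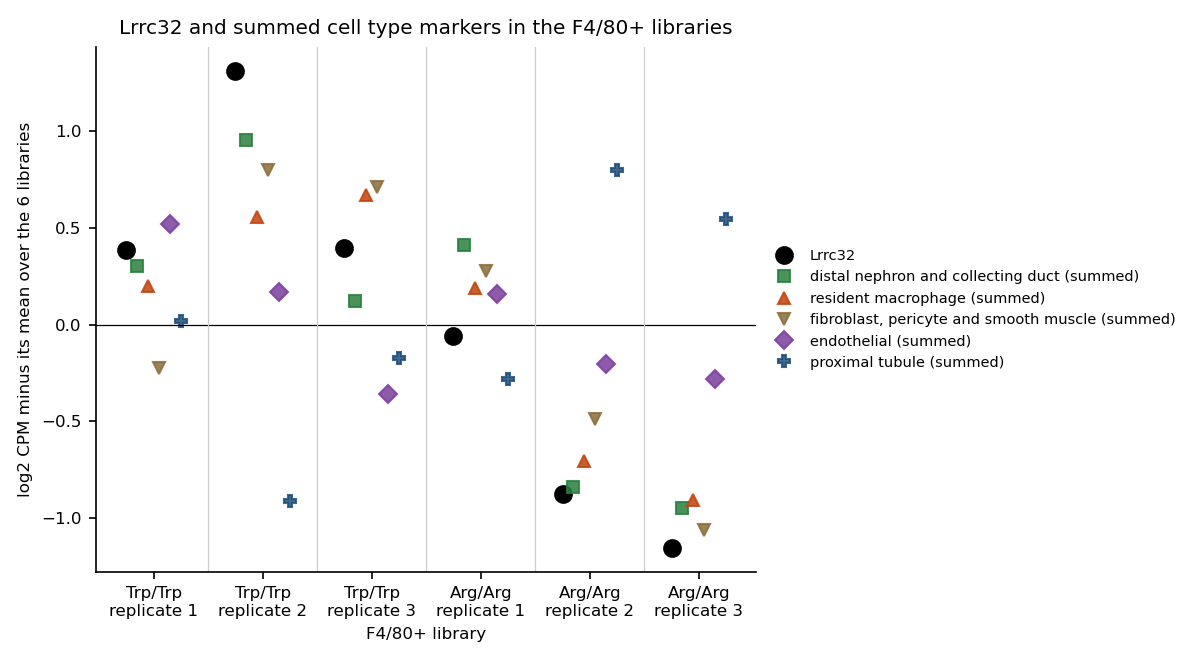
Log2 CPM minus its mean over the 6 F4/80+ libraries (vertical axis) for Lrrc32 and for summed markers of 5 cell types, in each library (horizontal axis, Trp/Trp left). Lrrc32 is highest in the second Trp/Trp library, at 43.1 CPM, and lowest in the third Arg/Arg library, at 7.83 CPM. The distal nephron sum, at 21270 and 5696 CPM, is highest and lowest in the same libraries. So is the fibroblast, pericyte and smooth muscle sum, at 1129 and 312 CPM. Unlike Lrrc32, both sums are higher in the first Arg/Arg library (14610 and 787 CPM) than in the first Trp/Trp library (13550 and 556 CPM).

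The genes whose pattern over the 6 F4/80+ libraries was nearest to that of Lrrc32 were Nos1, Cldn16, Prdm16os, Cldn19 and Nos3. Likeness was the root mean square difference of log2 CPM deviations over the 6 libraries, in 10900 genes with a mean count of at least 50. It was 0.122 for Nos1, the neuronal nitric oxide synthase, which in kidney marks the macula densa. It was 0.136 for Cldn16 and 0.162 for Cldn19, tight junction proteins of the thick ascending limb, 0.154 for the long noncoding RNA Prdm16os and 0.183 for Nos3, the endothelial nitric oxide synthase. The median over all compared genes was 0.769, and the nearest genes lie below it by the way they were picked. Likeness here uses the Lrrc32 values that chose the set, so the ranking is a description. Cldn16 had 25.7, 62.0 and 26.9 CPM in Trp/Trp and 24.1, 12.4 and 9.49 CPM in Arg/Arg F4/80+ libraries, with its peak in the second Trp/Trp library as for Lrrc32. Nos1 had 13.6, 27.8 and 14.1 CPM in Trp/Trp and 10.6, 4.68 and 4.79 CPM in Arg/Arg libraries. The reads of Prdm16os and its antisense partner cannot be told apart without a stated strand.

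Among 76 other genes of the pathway, in 5 lists, none passed between genotypes in either sample type, nor did any gene tested (0%, edgeR). At an unadjusted p under 0.05 lay 12 of 76 in kidneys (edgeR), beside 5.71% of all genes. In F4/80+ libraries 10 of 66 did, beside 8.04%. Groups there did not overlap for 16 of the 66 with Trp/Trp higher and 3 lower, beside 7.19% and 3.33% of all genes. In kidneys these were 7 and 2, beside 6.59% and 3.67%. Between sample types 23 rose and 28 fell in F4/80+ libraries of 70 tested. Since 32.7% of all genes were called higher and 32% lower, the count of those that rose is at the share of all genes and the count of those that fell is near it. The median log2 fold change of all genes was -0.004. The examples of each list are its 4 most abundant genes. For latent complex and activation, 2 of 15 rose and 8 fell, beside 32.7% and 32% of all genes, with a median log2 fold change of -0.48. Itgav, the integrin chain that releases latent TGF-beta with several partners, rose by 1.42 ± 0.13 (edgeR, adjusted p = 5.02e-07). Plau, which encodes the protease urokinase, fell to 137 ± 41.9 CPM in Trp/Trp and 147 ± 28.3 CPM in Arg/Arg F4/80+ libraries, against 708 ± 155 and 665 ± 118 CPM in kidneys of the same genotypes (SD, n = 3 each; edgeR, adjusted p = 3.41e-07). Itgb1 fell by 0.48 on the log2 scale (edgeR, adjusted p = 0.00281). Furin, the protease that cleaves the TGF-beta precursor, fell by 2.01 ± 0.17 on the log2 scale (edgeR, adjusted p = 1.92e-07) and was chosen after its values were seen.

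Itgb8, whose protein pairs with the Itgav product to release ligand held by GARP, did not differ by the test between sample types (0.05 ± 0.21, edgeR, adjusted p = 0.851). It had 172, 172 and 187 CPM in Trp/Trp and 207, 300.2 and 431 CPM in Arg/Arg F4/80+ libraries. Every Trp/Trp library was below every Arg/Arg library, the opposite of Lrrc32, where 3.33% of all genes had groups that did not overlap in that direction. The log2 fold change of -0.99 ± 0.31 did not pass (edgeR, adjusted p = 0.605), and in kidneys it was -0.11 ± 0.11 (edgeR, adjusted p = 0.892).

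Of 10 receptors and co-receptors, 5 rose and 4 fell between sample types, beside 32.7% and 32% of all genes, with a median of 0.24. Bmpr2, the type II receptor for bone morphogenetic proteins (BMPs), rose by 2.08 ± 0.12 (edgeR, adjusted p = 6.48e-09), Bmpr1a rose by 0.79 ± 0.14 and Eng, an endothelial co-receptor, fell by 1.53 on the log2 scale. Of the 14 endothelial markers, Eng among them, 12 fell, with a median of -1.26. Among 16 Smads and Smad regulators, 8 rose and 4 fell, with a median of 0.24, beside the same shares of all genes. Nedd4l and Smurf2, ubiquitin ligases that act on SMADs and receptors, rose by 1.07 ± 0.12 and 0.80 ± 0.09, Ppm1a, a SMAD phosphatase, fell by 0.32, and Ski, a SMAD co-repressor, lay at -0.07 ± 0.09 (edgeR, adjusted p = 0.481).

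Of 17 target genes tested, 4 rose and 9 fell between sample types, beside 32.7% and 32% of all genes, with a median of -0.93. Bhlhe40, a transcription factor, rose by 2.68 ± 0.15 and Acta2, the smooth muscle actin, by 1.39 ± 0.26. Ccn2, connective tissue growth factor, fell by 2.73 and Col4a1, a basement membrane collagen, by 1.83 on the log2 scale. Col1a1, a fibrillar collagen chosen after its values were seen, fell by 6.66. Of 11 fibroblast, pericyte and smooth muscle markers, some of which are also targets, 3 rose and 7 fell, and their part in the target counts was not tested. Of 12 genes tested in the BMP, activin and GDF branch, 4 rose and 3 fell, beside 32.7% and 32% of all genes, with a median of 0.03. Bmp7, a kidney tubule ligand, rose by 1.40 ± 0.10 and Id2, a BMP-induced inhibitor of transcription factors, by 0.54 ± 0.17, Id3 fell by 0.45 and Bmp6 lay at -0.16 ± 0.19 (edgeR, adjusted p = 0.471).

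Between genotypes no target passed, nor did any other gene tested (edgeR). In kidneys 18 of 20 had a positive log2 fold change, with a median of 0.32, where 50.6% of all genes were positive. Without the first Trp/Trp kidney this was 12 of 20, with a median of 0.08. Acta2 had 0.47 ± 0.32 and Ccn2 0.22 ± 0.14 in kidneys (edgeR, adjusted p = 0.848 for each), and Col4a1 and Bhlhe40 lay at 0.03 and -0.03. All 12 fibroblast, pericyte and smooth muscle markers and 13 of 14 resident macrophage markers were positive in kidneys too, with medians of 0.31 and 0.56. In F4/80+ libraries 14 of 15 targets were positive, with a median of 0.47, where 51.1% of all genes were, and 9 of 9 mural and 11 of 12 macrophage markers were as well. The part of these markers in the target values was not tested. Of the other lists, the BMP, receptor, latent complex and Smad genes had median log2 fold changes of 0.07, 0.02, 0.07 and -0.01 in kidneys and 0.18, 0.13, 0.12 and 0.17 in F4/80+ libraries.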

How the data were processed

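Genotype, sample type and replicate came from the labels, and each count column was matched by the short name in a sample's title. STAR, DRAGEN, DESeq2 and mm10 are named in the submitters' processing notes, without versions or roles, and no source used here gives the annotation release. The authors deposited a table per sample type with raw counts per gene and library. The deposited log2 fold change, its ratio (fold change), the score columns (SE and Wald statistic), raw and adjusted p-values and the signal columns (mean of size-factor scaled counts) were as DESeq2 writes them. The authors' deposited log2 values were turned to Trp/Trp over Arg/Arg, and 2 of the 9 genes had an adjusted p there in F4/80+ cells and 8 of 9 in kidney. Coordinates match the mm10 annotation GENCODE M21 for 15231 of 15356 identifiers found.

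Counts were fitted with edgeR 4.0.16 in R 4.3.3 (filterByExpr with a minimum count of 10, TMM, quasi-likelihood test, Benjamini-Hochberg adjustment over all genes, threshold 0.05). Genotypes were fitted per table over nuclear and mitochondrial genes alike. Sample types were fitted over all 12 libraries with genotype as a term, on the 13733 nuclear protein-coding genes that the tables share. The SE is the log2 fold change over the root of the F statistic, so it restates the test. The spread between replicates, as edgeR's biological coefficient of variation, was 0.101 in kidney and 0.280 in F4/80+ libraries, so the F4/80+ comparison is the less precise. CPM is over nuclear protein-coding counts. The likeness to Lrrc32 and the replicate correlations instead used edgeR's log2 CPM with a prior count of 2. That scale used TMM over all genes kept by the filter. The method was tested on simulated data with the same spread in all libraries of a comparison. The simulation thus did not hold the unequal spread of kidney and F4/80+ libraries. Alternatives were DESeq2 1.42.0, limma 3.58.1 (voom), other scaling, no filter, a replicate block and leaving out each library. Replicate numbers did not pair the samples. The 9 genes and the lists were chosen with earlier results of these data known. Named beside the 9 were the 4 pathway genes of highest mean CPM per list, the top markers and the 5 genes nearest Lrrc32 in pattern. The counts over lists without a library, and those of calls among the 9 genes under each setting, were added after seeing the data.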

Additional observations from a re-analysis of the deposited data

Results flagged for a closer look

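Over the 6 kidney libraries, Tgfb2 at 5.55 CPM and Tgfb3 at 8.36 CPM in Trp/Trp kidney replicate 1 stood apart from the other 5 by Dixon's test. The other kidney libraries lay between 1.69 and 2.17 CPM for Tgfb2 and between 1.91 and 4.18 CPM for Tgfb3. The test was run on 18 groups, the 9 genes in each sample type, and chance flags about 1 in 20 groups.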

How the results depend on the processing

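Of 144 values of the 9 genes under other settings, 137 were counted as unchanged. All of these kept their direction. Kidney genotype and sample type values among them also kept their side of the threshold. F4/80+ genotype values among them moved by less than the within-group SD of log2 CPM. DESeq2 called 15 genes between genotypes in kidney and 4 in F4/80+ libraries, where edgeR called 0 in each. The authors' deposited DESeq2 values held 15 and 20 such genes. Replicate numbers shared by the genotypes showed no pairing. The correlations of same-numbered libraries were -0.08, -0.02 and -0.01 in kidney and -0.31, -0.49 and 0.18 in F4/80+ libraries. Those of differently numbered libraries ranged from -0.125 to 0.114 in kidney and from -0.145 to 0.483 in F4/80+ libraries. With the number as a replicate block edgeR still called 0 genes in each, 691 and 700 genes were at an unadjusted p under 0.05, and Ltbp1 in kidney was -0.0115 in place of 0.01. Library totals without TMM moved the median of all genes to -0.14 between sample types. Under that scaling Lrrc32 was -0.0011, and Tgfb3 and Smad7 passed at -0.80 and -0.37 (edgeR, adjusted p = 0.0423 and 0.0348).

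Leaving out each library in turn, the kidney genotype log2 fold change ranged from -0.14 to 0.82 for Tgfb2, -0.0316 to 0.88 for Tgfb3, -0.17 to 0.12 for Ltbp1 and -0.18 to 0.14 for Smad7. In F4/80+ libraries it ranged from -0.0151 to 0.44 for Tgfbr1, -0.15 to 0.10 for Tgfbr2 and 0.98 to 1.51 for Lrrc32. Between sample types it ranged from -0.0918 to 0.26 for Lrrc32 and from -3.61 to -3.38 for Tgfb1. The F4/80+ libraries, with fewer nuclear counts and a wider spread between replicates, limit the precision of their genotype comparison. The 5 to 23 reads of Tgfb1 per F4/80+ library limit its level there.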
